A study of Mus musculus with 6 samples.

Results

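The genes examined were 9 that carry signals from death receptors and nucleic acid sensors to caspase-8 or to necroptosis: Tnfrsf1a, Fadd, Casp8, Cflar, Ripk1, Cyld, Zbp1, Ripk3 and Mlkl. They were chosen by name and found by Entrez gene ID among 36528 gene IDs, and all 9 had enough reads to be tested. RNA sequencing was done on 6 libraries of mouse HOXB-8 cells from bone marrow, a myeloid progenitor line kept dividing by a homeobox protein, although the extraction notes call the lines iMACs. The 3 Parental libraries are wild type for Irf2 and, per the notes, carry a control guide RNA against Luc. The 3 IRF2_KO libraries carry a guide RNA directed at Irf2, a member of the family of interferon regulatory factors (IRF), which switch interferon-linked genes on or off. No stimulus or treatment is named for either group. The labels give no replicate numbers, so libraries were numbered here within each group in sample order. The labels do not say whether a group's libraries are separate cultures or clones, so p-values reflect the spread among these libraries alone, which may be technical.

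In necroptosis, a cell is killed by MLKL, a pseudokinase that breaks the plasma membrane once the kinase RIPK3 has phosphorylated it. RIPK3 is engaged through a shared short motif by RIPK1, downstream of the tumour necrosis factor (TNF) receptor, or by ZBP1, which senses Z-form nucleic acids. Caspase-8, recruited by the adaptor FADD and tuned by its inactive relative c-FLIP, cleaves RIPK1 and RIPK3 and holds the pathway in check. Macrophages are among the cells in which this balance is widely studied, and Zbp1 is a classical interferon-induced gene.

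Total counts ran from 33422590 to 39925038 in Parental and from 29070160 to 34051219 in IRF2_KO. Levels are given in CPM (reads of a gene relative to the TMM-adjusted size of its library), and errors are SDs over the 3 libraries of a group (n = 3). The granule genes Mpo, Elane, Prtn3 and Ctsg and the driver gene Hoxb8 were expressed in all libraries, whereas Cd34 was too low to test. Of 7 tested progenitor markers, 4 fell in IRF2_KO, among them the receptor gene Kit from 8.04 to 0.827 CPM and Elane 3.23-fold (Mpo and Myb fell less), and Ctsg rose. By the same test, given below, 23.6% of all tested genes were lower in IRF2_KO and 23.6% higher. Of 25 markers of lymphoid, erythroid, megakaryocytic, mast, stromal and endothelial cells, 23 stayed under 1 CPM in all 6 libraries. Mcpt8 and Pecam1 were the exceptions. Irf2 stood at 41.1, 42.4 and 41.1 CPM in Parental and at 40.3, 37.0 and 40.1 CPM in IRF2_KO (edgeR adjusted p = 0.209), and as an edited gene may still be transcribed, this level does not check the labels. Gsdmd, the pore-forming protein of pyroptosis, fell 33.1-fold in IRF2_KO (edgeR adjusted p = 5.59e-18).

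The comparison asks how transcripts of the necroptosis machinery stand when IRF2 is disrupted. One member changed by a large factor and 8 changed little. Zbp1 rose 33.0-fold in IRF2_KO. Ripk3, Mlkl, Casp8, Cflar, Cyld and Tnfrsf1a rose by 14.9% to 26.6%, whereas Fadd fell by 27.3% and Ripk1 by 12.2%. All 9 passed the test, 7 higher and 2 lower, and in all 9 the libraries of the groups did not overlap (edgeR quasi-likelihood test, Benjamini-Hochberg adjusted over 13353 genes, threshold 0.05). In the same comparison 47.2% of all genes tested were called, 23.6% higher and 23.6% lower, and 54% had groups that did not overlap, so that a call by itself sets no gene apart here. Against a minimum change of 1.5-fold (edgeR glmTreat), which 7.63% of tested genes passed, Zbp1 was the only member still called.

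**Figure D1:**
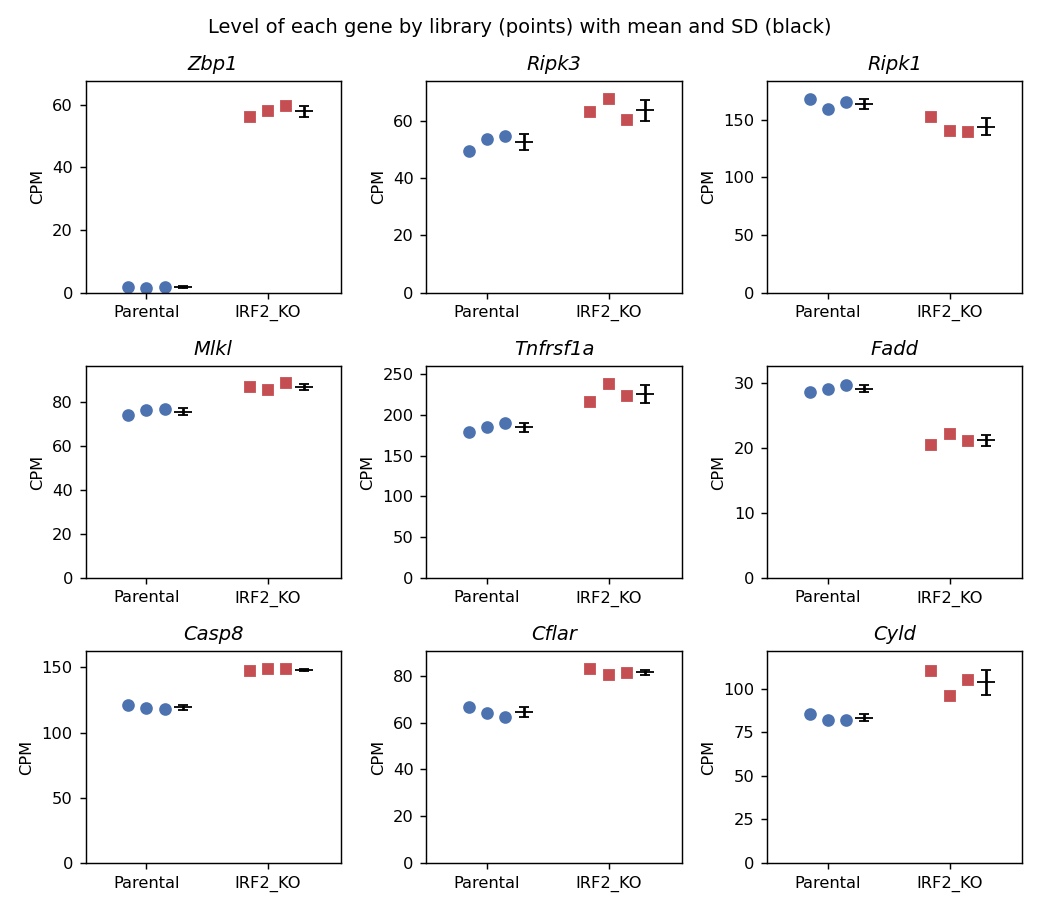
CPM of the 9 genes in each library, with a linear axis from 0 in every panel. Blue circles are Parental and red squares IRF2_KO libraries, and the black bars give mean and SD. Zbp1 goes from under 2 CPM to above 55 CPM, while the other genes shift by a small part of their level with no overlap between groups.

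Zbp1 (Entrez gene 58203, chromosome 2, 173206612 to 173218959 on GRCm38) encodes the sensor that can start necroptosis without a death receptor. Its reads numbered 77, 46 and 76 in Parental and 1667, 1661 and 2004 in IRF2_KO. In CPM these were 1.94, 1.37 and 1.89 against 56.0, 57.9 and 59.6. The gene was thus present at a low level in every Parental library, lowest in Parental 2, and the IRF2_KO libraries lay close together. The log2 fold change was 5.04 (SE 0.09; edgeR adjusted p = 6.31e-18), the 28th largest rise among 13353 genes. Leaving out any single library gave 4.91 to 5.13.

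The genes whose 6 values lay nearest to those of Zbp1, by Euclidean distance between log2 CPM over the 6 libraries, were Slfn5 (distance 1.62), Gbp3 (2.15), Usp18 (2.16), Ifi27 (2.22) and Slfn1 (2.91). Their rises ran from 2.85 (Slfn1) to 6.71 (Gbp3) on the log2 scale. With 2 groups, this likeness rests on the level in each group and holds no other pattern.

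Ripk3 (chromosome 14, 55784995 to 55788857) encodes the kinase that ZBP1 and RIPK1 engage. It stood at 49.4, 53.5 and 54.7 CPM in Parental and at 63.0, 67.5 and 60.4 CPM in IRF2_KO. Its lowest IRF2_KO library lay above the highest Parental library by a margin similar to the spread within a group, and the log2 fold change was 0.28 (SE 0.05; edgeR adjusted p = 0.000463). The non-coding gene Gm32092 spans Ripk3 but had at most 1 read in any library. Mlkl (chromosome 8, 111311255 to 111338479), the executioner, stood at 73.9, 76.2 and 76.9 CPM in Parental against 86.8, 85.5 and 88.5 CPM in IRF2_KO. That is the smallest rise of the 7, by 0.20 on the log2 scale (SE 0.04; edgeR adjusted p = 0.00115).

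Ripk1 (chromosome 13, 34002225 to 34035170) encodes the kinase that, after TNF, serves either survival or death. It stood at 168, 159 and 165 CPM in Parental and at 152, 140 and 139 CPM in IRF2_KO. The groups were separate, with IRF2_KO 1 nearest to Parental, and the gene fell by 0.19 on the log2 scale (SE 0.05; edgeR adjusted p = 0.00276). Its 5′ end overlaps that of Serpinb6a on the opposite strand over 570 bases. Whether strand was used in counting is not given in the sources used here, so reads there could be shared. Serpinb6a had 648 to 796 reads per library against 4007 to 6640 for Ripk1. Cyld (chromosome 8, 88696878 to 88751946), a deubiquitinase that trims the chains holding RIPK1 in its survival complex, stood at 85.7, 82.0 and 82.4 CPM against 110, 95.6 and 105 CPM. The IRF2_KO libraries spread more than the Parental ones, and the rise was 0.31 on the log2 scale (SE 0.05; edgeR adjusted p = 8.39e-05).

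Tnfrsf1a (chromosome 6, 125349723 to 125362483), the main TNF receptor, had the highest level per length of the set, as given further on. It measured 179, 186 and 190 CPM in Parental and 215, 238 and 223 CPM in IRF2_KO, a log2 fold change of 0.29 (SE 0.05; edgeR adjusted p = 5.34e-05). Fadd (chromosome 7, 144578323 to 144582441), the adaptor between the receptor complexes and caspase-8, went the other way. It stood at 28.5, 29.0 and 29.7 CPM in Parental and at 20.4, 22.1 and 21.0 CPM in IRF2_KO. Fadd fell by 0.46 on the log2 scale (SE 0.06; edgeR adjusted p = 5.17e-06), the largest change of the set after Zbp1.

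Casp8 (chromosome 1, 58795233 to 58847503), the initiator caspase, measured 121, 119 and 118 CPM in Parental and 147, 148 and 148 CPM in IRF2_KO. The IRF2_KO libraries were almost level, and the log2 fold change was 0.31 (SE 0.04; edgeR adjusted p = 7.62e-06). Cflar (chromosome 1, 58711311 to 58758884), which encodes c-FLIP and lies upstream of Casp8 on the same strand with a lncRNA gene between them in RefSeq, measured 66.6, 64.1 and 62.4 CPM against 82.7, 80.4 and 81.3 CPM. It rose by 0.34 on the log2 scale (SE 0.05; edgeR adjusted p = 8.83e-06). Both the caspase and its regulator thus rose in IRF2_KO, with no overlap between the groups.

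**Figure D2:**
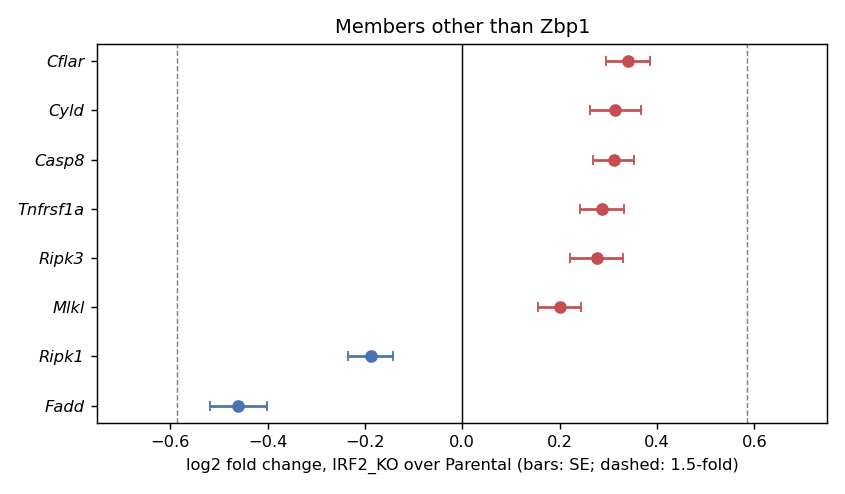
Log2 fold change of IRF2_KO over Parental for the 8 members other than Zbp1, with bars of 1 SE. Red points rose and blue points fell. All lie inside the dashed lines at 1.5-fold, between -0.46 for Fadd and 0.34 for Cflar.

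Apart from Zbp1, the sizes of these changes were typical of called genes and above the median of all tested genes. From 51.1% (Ripk1) to 81.4% (Fadd) of tested genes changed less. Without Zbp1, the members changed 1.14-fold to 1.38-fold, with a median absolute log2 fold change of 0.30, against 0.32 for all 6296 called genes and 0.18 for all tested genes. Markers of several myeloid cell types moved with the groups as well, in a comparison where 23.6% of all tested genes were called in each direction. Of 11 tested macrophage markers, 9 were higher in IRF2_KO, Cd14 was lower and Mertk did not pass. The defining complement genes C1qa and C1qb, also among the 13 listed, were too low to test. The summed level of the 13 was 627 to 636 CPM in Parental and 1704 to 1708 CPM in IRF2_KO. That sum rests largely on Lpl (71.8 to 472 CPM), Gpnmb (185 to 535 CPM) and Lyz2 (193 to 480 CPM). Adgre1 and Mrc1 each rose 1.36-fold. The largest rise by fold was that of Siglec1, 25.8-fold, at a low level (0.0730 to 1.91 CPM). Csf1r rose 3.88-fold and Fcgr1 2.63-fold. Beside these, 4 of 7 tested progenitor markers fell. Of 8 neutrophil markers, 4 rose, among them Ltf (log2 fold change 1.38), and Camp fell (-0.92), with S100a8, S100a9 and Ly6g not passing and a summed level of 289 to 301 CPM in Parental and 333 to 336 CPM in IRF2_KO. Of 3 tested dendritic markers, Itgax (1.41) and Clec10a (1.31) rose and Flt3 fell (-0.85). The part of these markers in the members' differences was not tested. In such bulk libraries, fewer cells of a kind and less RNA per cell cannot be told apart.

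Levels of different genes can be compared only per length, for which the deposited RPKM was used. In Parental the order was Tnfrsf1a (83.4 ± 2.34 RPKM), Casp8 (38.2 ± 0.629), Mlkl (29.3 ± 0.531), Ripk3 (26.0 ± 1.30), Ripk1 (20.9 ± 0.608), Fadd (9.84 ± 0.173), Cyld (9.42 ± 0.254), Cflar (7.49 ± 0.262) and last Zbp1 (0.766 ± 0.142). Only Fadd and Cyld overlapped in range among neighbours of that order. Transcripts of machinery for both outcomes were therefore present in the Parental libraries, with the sensor Zbp1 9.78-fold under the next gene. In IRF2_KO, Zbp1 reached 25.7 ± 0.862 RPKM and stood between Ripk3 (31.7 ± 1.89) and Ripk1 (18.4 ± 0.843). Fadd became the lowest of the set, at 7.20 ± 0.338 RPKM, below Cflar (9.53 ± 0.0917). In IRF2_KO only Mlkl (33.8 ± 0.514 RPKM) and Ripk3 overlapped in range among neighbours. With GENCODE exon lengths in place of the authors' gene models, an alternative chosen after seeing the data, Zbp1 stood just under Ripk1 in IRF2_KO, at 16.4 against 17.2 CPM per kilobase, and every other place was kept. Whether Zbp1 lay above Ripk1 thus depends on the length used.

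**Figure D3:**
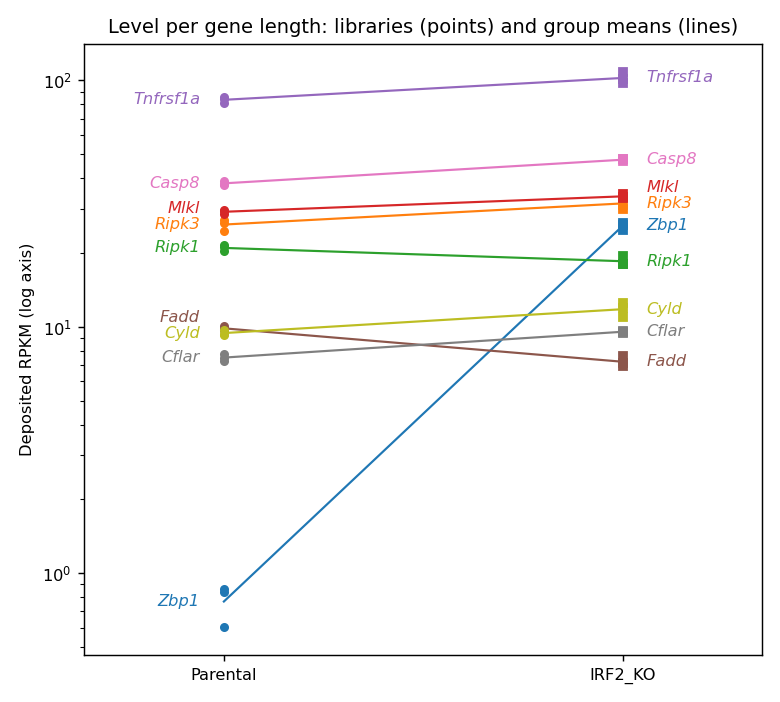
Deposited RPKM of the 9 genes on a log axis, with 1 point per library and lines joining the group means of Parental (left) and IRF2_KO (right). Zbp1 climbs from the bottom, at 0.766 RPKM, to 25.7 RPKM between Ripk3 and Ripk1, and Fadd drops below Cyld and Cflar.

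Because partners act together, 4 ratios of RPKM were compared per library. Cflar over Casp8 was 0.200, 0.197 and 0.192 in Parental and 0.205, 0.197 and 0.199 in IRF2_KO, so the groups overlapped and the means differed 1.02-fold (two-sided exact permutation p = 0.4). Ripk3 over Casp8 was 0.681 ± 0.0450 and 0.665 ± 0.0368 (two-sided exact permutation p = 0.7), and Mlkl over Ripk3 was 1.13 ± 0.0371 and 1.07 ± 0.0772 (p = 0.4 by the same exact test). In these 3 ratios the difference was within the spread of the libraries. Its direction for Ripk3 over Casp8 turned without Parental 3 (0.003 on the log2 scale) or IRF2_KO 3 (0.005), against -0.03 with all libraries. Zbp1 over Ripk1 went from 0.0366 ± 0.00587 to 1.40 ± 0.107, a 38.5-fold difference (two-sided exact permutation p = 0.1, the smallest that 3 against 3 libraries can give). After adjustment over the 4 ratios the exact p-values were 0.4 to 0.7, and no ratio could have passed 0.05 in this design.

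**Figure D4:**
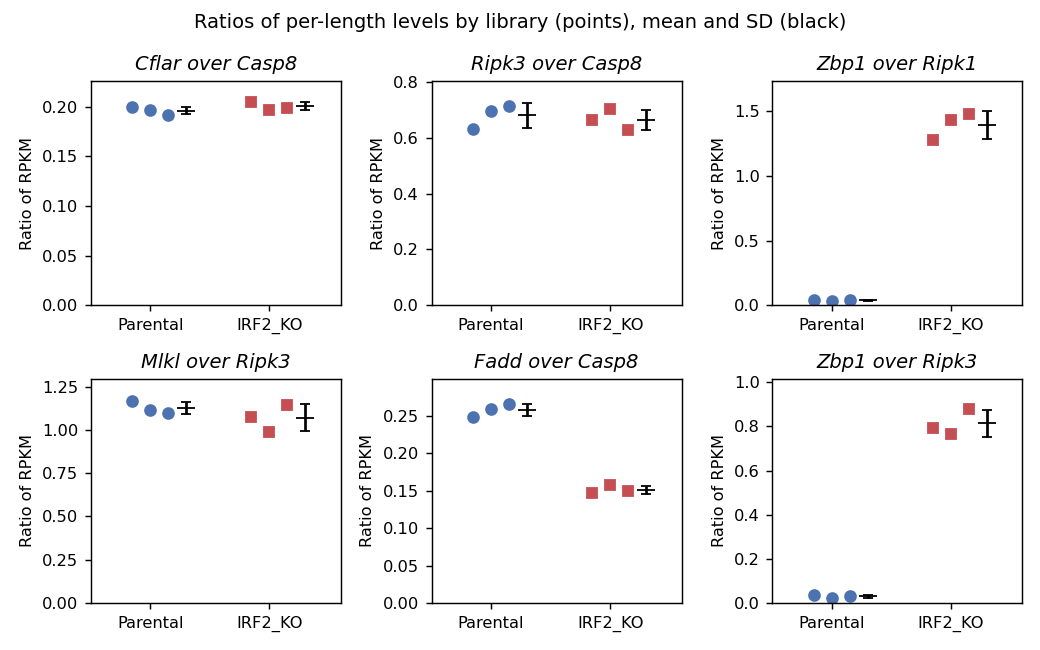
Ratios of RPKM between partners in each library, on linear axes from 0, with mean and SD in black. Cflar over Casp8, Ripk3 over Casp8 and Mlkl over Ripk3 overlap between Parental (blue circles) and IRF2_KO (red squares), whereas the ratios with Zbp1 and Fadd over Casp8 separate the groups. Fadd over Casp8 and Zbp1 over Ripk3 were chosen after their values were seen and were not tested.

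Promoter letters were read for the members because IRF proteins bind repeats of GAAA. RefSeq promoter windows of 300 bases on GRCm38.p6, 250 before and 50 from the start site on, were matched for 8 of the 9 members (9 windows, Ripk1 having a pair). Zbp1 was not matched, so its promoter was not searched. The IRF motif, GAAA repeated after any 2 bases, was sought on both strands. It was found in 2 of these 9 windows, against 3.44% of 32851 windows of all genes. The windows with a match are shown because they belong to a member that fell and one that rose. Casp8 is shown for its matches to the shorter AANNGAAA, which is contained in the IRF motif and occurs in 4 of the 9 windows and in 23.9% of all. Each line is the strand of the gene, 5′ to 3′, with the match in capitals.
Ripk1: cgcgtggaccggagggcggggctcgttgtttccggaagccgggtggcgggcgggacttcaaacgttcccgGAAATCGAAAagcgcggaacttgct
Cflar: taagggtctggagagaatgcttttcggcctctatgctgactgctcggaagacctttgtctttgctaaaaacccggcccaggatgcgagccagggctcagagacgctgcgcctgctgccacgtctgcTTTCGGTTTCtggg
Casp8: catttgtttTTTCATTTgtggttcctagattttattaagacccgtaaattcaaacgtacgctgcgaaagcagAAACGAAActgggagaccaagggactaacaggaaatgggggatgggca

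The Ripk1 stretch is chr13:34002799-34002893 on the plus strand, at the downstream one of its listed start sites. Its match GAAATCGAAA begins 5 bases before that start site, inside the transcription unit that begins at the upstream site. The match shares bases with a match to the GAS motif TTCNNNGAA, TTCCCGGAA, which begins 11 bases before the start site. GAS matches were found in 2 member windows, Ripk1 and Tnfrsf1a, and in 8.3% of all windows. The Cflar stretch is chr1:58711371-58711510 on the plus strand. Its match, which reads GAAACCGAAA on the other strand, begins at base 7 from the start site of its window. That site lies downstream of the RefSeq gene start at 58711311, so the stretch and its match are inside the gene span. The Casp8 stretch is chr1:58802322-58802441 on the plus strand, within an intron of longer transcripts, with matches that begin 171 and 108 bases before the start site. The NF-kB motif, GGG and CC parted by any 5 bases, was found in 5 of the 9 windows and in 50.8% of all. Such matches are letters in a window and do not show binding.

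The rest of the pathway was described from 6 lists holding 59 further genes. Of these, 53 could be tested, and 14 rose, 8 fell and 31 did not pass. Thus 41.5% were called, against 47.2% of all genes tested (23.6% in each direction), and the counts below for single lists are to be read against that share. With scaling by library size alone, 11 rose and 11 fell. Their median log2 fold change was 0.03, beside -0.01 for all genes tested. The myeloid markers given above differed between the same libraries.

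Among death receptors and ligands, 3 of 8 tested members rose and 1 fell (median log2 fold change -0.06). Fas, the receptor of Fas ligand, rose from 3.60 ± 0.274 to 7.05 ± 0.827 CPM (log2 fold change 0.97, SE 0.12). Tnfrsf1b, the second TNF receptor, which lacks a death domain, fell from 95.2 ± 4.52 to 55.8 ± 0.385 CPM, opposite in direction to Tnfrsf1a. The other rises were slight. That of Tnfrsf21 (0.13) was lost without Parental 1, Parental 3, IRF2_KO 2 or IRF2_KO 3 (edgeR adjusted p = 0.0677 to 0.0919). With all libraries, it was lost under scaling by library size alone or no filter (edgeR adjusted p = 0.0798 and 0.0699). That of the TRAIL receptor gene Tnfrsf10b (0.44) was lost without any library other than IRF2_KO 3 (edgeR adjusted p = 0.0735 to 0.201) and, with all libraries, under DESeq2, limma-voom, scaling by library size alone, no filter or removal of the 100 most abundant genes (adjusted p = 0.0547 to 0.122). Without Parental 3 or IRF2_KO 2, or with scaling by library size alone, 1 list member rose, and without Parental 1, 1 rose and 2 fell. Ligands were scarce: Tnf measured 3.08 ± 0.167 and 2.73 ± 0.228 CPM, Fasl had no read in any library, which allows up to 3 reads or 0.103 CPM in the shallowest library, and Lta and Tnfsf10 were too low to test.

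Of 19 genes listed for the complex that forms on TNF receptor 1, 6 rose, 2 fell and 11 did not pass (median log2 fold change 0.06). The list also held the kinase gene Mapkapk2, which is not counted here as a part of the complex. Subunits of the linear ubiquitin ligase rose, Rnf31 from 28.2 ± 1.61 to 39.5 ± 2.88 CPM and Rbck1 from 204 ± 8.99 to 261 ± 17.0 CPM, but its subunit Sharpin measured 70.4 ± 4.16 and 68.3 ± 2.31 CPM. Ikbkg, the regulatory subunit of the IKK kinase, rose by 0.25 on the log2 scale and the related kinase gene Ikbke by 0.27. Traf2 and Tab2 were the members that fell (log2 fold changes -0.21 and -0.16). Without IRF2_KO 3, neither was called.

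Of 7 deubiquitinases and other brakes, 2 rose and 2 fell (median log2 fold change 0.10). Tnfaip3, which encodes the ubiquitin editor A20, rose from 11.1 ± 0.546 to 17.5 ± 0.438 CPM, and Otud7b rose by 0.33 on the log2 scale. Otulin, which removes linear chains, fell from 47.9 ± 0.825 to 38.4 ± 2.04 CPM, and Spata2, the partner that brings CYLD to the receptor, from 54.9 ± 3.28 to 45.8 ± 0.984 CPM. Thus Cyld rose while the transcript of its partner fell. Without IRF2_KO 1, 4 members of this list were called higher.

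The list of other routes to RIPK3 also held Adar, a brake rather than a route. Of 3 tested members, 1 rose and none fell (median log2 fold change 0.06). Adar, the RNA editor that limits double-stranded ligands of ZBP1, rose from 63.0 ± 2.07 to 124 ± 2.05 CPM (log2 fold change 0.97, SE 0.05; edgeR adjusted p = 6.70e-12). So the sensor and a gene that limits its ligands were both higher. Ticam1, the adaptor TRIF, measured 27.6 ± 2.17 and 25.9 ± 1.36 CPM, and Tlr4, which signals through it, 327 ± 17.4 and 342 ± 27.1 CPM. Tlr3 was too low to test.

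Of regulators of RIPK3 and MLKL, 3 of 9 fell and 1 rose (median log2 fold change -0.11). Pgam5, a mitochondrial phosphatase, fell by 0.23 on the log2 scale, Itpk1, an inositol phosphate kinase, by 0.22, and the chaperone partner Cdc37 by 0.17. The rise of the phosphatase gene Ppm1b (0.15) was lost without Parental 2, Parental 3, IRF2_KO 2 or IRF2_KO 3 (edgeR adjusted p = 0.053 to 0.179). With all libraries it was also lost under scaling by library size alone or no filter (edgeR adjusted p = 0.092 and 0.0823). On RPKM with a pseudocount of 0.1 or 1 it was lost as well (limma adjusted p = 0.0534 and 0.0525). Without IRF2_KO 2, 5 members fell.

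Genes of the ESCRT-III machinery, which can shed membrane damaged by MLKL, were also listed. Of 7 tested, 1 rose, none fell and 6 did not pass (median log2 fold change 0.03). The member that rose was Pdcd6ip, from 299 ± 6.73 to 328 ± 7.41 CPM, and its call was lost without Parental 3 (edgeR adjusted p = 0.069) or IRF2_KO 3 (0.0582). Chmp4b and Chmp2a (log2 fold changes 0.10 and 0.08) passed without IRF2_KO 1 (edgeR adjusted p = 0.00623 and 0.045), which made 3 higher. With all libraries, Chmp4b also passed under DESeq2 (adjusted p = 0.0427). In edgeR it passed with RLE scaling (adjusted p = 0.044) or a filter of 1 CPM in 3 libraries (adjusted p = 0.0443). Vps4a, at a log2 fold change of -0.12, did not pass.

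**Figure D5:**
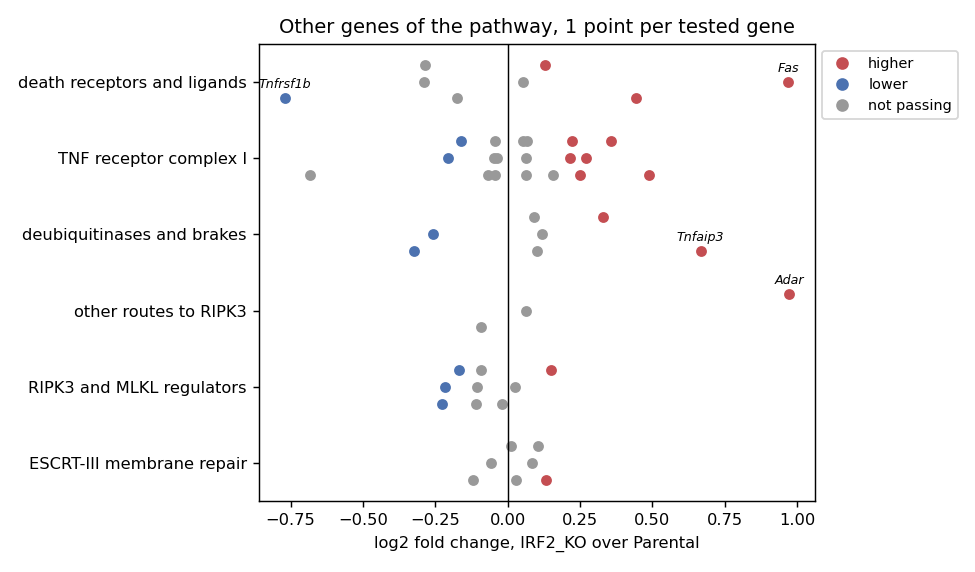
Log2 fold change of IRF2_KO over Parental for the 53 tested genes of the 6 pathway lists, 1 point per gene, coloured by whether it was called higher, called lower or did not pass. By list, the median absolute log2 fold change ran from 0.08 (ESCRT-III) to 0.29 (death receptors and ligands), against 0.18 for all tested genes. Fas and Adar (both 0.97), Tnfaip3 (0.67) and Tnfrsf1b (-0.77) lie farthest out among called genes.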

How the data were processed

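Per the submitters' processing notes, the authors aligned reads with GSNAP to GRCm38; versions, annotation and strand setting: not given in the sources used here. The deposited counts are, per the file headers, uniquely aligned reads of a gene model, and the deposited RPKM values are adjusted by a size factor. Near-identical copies therefore lose reads. Symbols came from RefSeq for 31049 of 36528 IDs, and all list genes were matched.

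Counts were fitted in R 4.3.3 with edgeR 4.0.16 (filterByExpr, TMM, robust quasi-likelihood F-test, two-sided, Benjamini-Hochberg, threshold 0.05), which was tested on simulated data. Standard errors were derived from the log2 fold change and F. The alternatives used limma 3.58.1, DESeq2 1.42.0, other scalings, filters, RPKM, stricter calls and each library left out. In the shallowest library 3 reads are 0.103 CPM, which covers counting error only. Named are the members, Irf2, Gsdmd, up to 4 genes per list with the smallest adjusted p, those with no read, and the 5 genes nearest to the most changed member; other genes were named after their values were seen. Members and lists were chosen with earlier results of these data known. Some pathway genes are not reported here.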

Additional observations from a re-analysis of the deposited data

How the results depend on the processing

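Among the 18 alternatives, the stricter adjusted p and the minimum of 1.5-fold reuse the log2 fold changes of the main fit. Direction could not turn under those. The 9 members kept their direction under all 18 alternatives each, and Zbp1 its call (log2 fold change 3.92 to 5.13, lowest on RPKM with a pseudocount of 1). The other 8 lost their call only against a minimum of 1.5-fold, which asks a different question, at unchanged log2 fold changes of -0.19 for Ripk1, 0.28 for Ripk3, 0.20 for Mlkl, 0.31 for Casp8, 0.34 for Cflar, -0.46 for Fadd, 0.31 for Cyld and 0.29 for Tnfrsf1a. That minimum left 1 member higher and 0 lower, 2 pathway genes higher and 1 lower, and 718 of all genes higher and 301 lower (edgeR glmTreat). An adjusted p under 0.01 left 9 pathway genes higher. With scaling by library size alone, 11 pathway genes were higher and 11 lower in place of 14 and 8, and 2787 of all genes were higher and 3731 lower in place of 3146 and 3150. That scaling left 1 death receptor list gene higher in place of 3, 0 RIPK3 and MLKL regulators higher and 5 lower in place of 1 and 3, and 1 ESCRT-III gene lower in place of 0. With each library left out in turn, 7 members stayed higher and 2 lower, pathway genes gave 10 to 17 higher and 6 to 10 lower, and all genes 2717 to 3158 higher and 2539 to 3099 lower. The log2 difference of the per-length ratio Ripk3 over Casp8 then ran from -0.089 to 0.0048, turning sign without Parental 3 or IRF2_KO 3. With GENCODE lengths, Cflar over Casp8 was 0.123 and 0.126 in place of 0.196 and 0.200. Zbp1 over Ripk1 in IRF2_KO was 0.954 in place of 1.40, so these ratios depend on the gene model. A fixed length per gene cancels from their difference between groups, so that difference is no check of the gene model. At this depth 6 of the 59 pathway genes were too low to test. No paired analysis was possible because the labels give no replicate numbers.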

Other observations

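A pair of ratios chosen after their values were seen is given without a test. Fadd over Casp8, the adaptor against the caspase it recruits, measured 0.249, 0.259 and 0.266 in Parental against 0.147, 0.158 and 0.150 in IRF2_KO, 1.71-fold lower in IRF2_KO with no overlap. Fadd and Casp8 differed in opposite directions, each with no overlap, and both differences enter this ratio. Its lack of overlap follows from theirs and adds nothing to them. Zbp1 over Ripk3, the sensor against the kinase it engages, was 0.0351, 0.0228 and 0.0309 in Parental and 0.794, 0.767 and 0.881 in IRF2_KO. These values rest on the deposited RPKM. With GENCODE lengths, Zbp1 stood at 16.4 and Ripk3 at 27.8 CPM per kilobase in IRF2_KO. Tnfrsf25, a death receptor too low to test, measured 0.0434 ± 0.0281 CPM in Parental and 0.300 ± 0.0761 CPM in IRF2_KO. These levels rest on few reads, 3, 1 and 1 in Parental and 8, 7 and 13 in IRF2_KO. Tlr3, also too low to test, went the other way, with 5, 4 and 13 reads against 0, 2 and 2.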
